A study of Mus musculus with 40 samples.

Results

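Expression of 10 fatty acid synthesis genes was followed in the right kidney of mice after removal of the left kidney (unilateral nephrectomy, UNx) or a sham operation without kidney removal. The genes were the listed targets and regulators of lipid synthesis Srebf1, Mlxipl, Acly, Acaca, Fasn, Scd1, Scd2, Elovl6, Me1 and Thrsp, 10 of 28467 genes in the bulk table and 10 of 32285 in the nucleus table. Cells build fatty acids from cytosolic acetyl-CoA, which is carboxylated to malonyl-CoA and extended on fatty acid synthase with NADPH as the reductant. Elongases and desaturases then turn palmitate into the longer and unsaturated chains of membranes and triglycerides. The transcription factors SREBP1, encoded by Srebf1 and activated by insulin, and ChREBP, encoded by Mlxipl and activated by sugar metabolites, drive these enzymes in liver and fat, and the proximal tubule of the kidney is better known for burning fatty acids than for making them.

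All mice were male C57BL/6 aged 8 to 12 weeks, with no genetic change named in the labels. Both operations were done under isoflurane, with buprenorphine for pain. Bulk RNA-seq of a kidney cross-section covered 6 sham and 6 UNx mice at each of 24, 48 and 72 h, and single-nucleus RNA-seq covered 2 sham and 2 UNx other mice at 24 h. The labels put the 24 h bulk libraries in batch 1, those of 48 and 72 h in batch 2, and the first and second nucleus mouse of each group in batches 3 and 4. Replicates are separate mice by their mouse numbers, and each library is 1 mouse.

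Bulk libraries held 14.9 M to 24.1 M estimated counts. Levels are given as counts per 1000000 counts (CPM, scaled by TMM factors over the 36 libraries). The 8 proximal tubule markers were all above 1 CPM in every library, as a kidney cross-section should give. In 2 respects libraries stood apart. The mitochondrially encoded share of counts was 15.2% in UNx replicate 6 at 48 h against 25.8% to 26.4% in the other 48 h UNx libraries. The 48 h shams lay between 14.0% and 15.5%. At 24 h the share was 23.5% to 26.7% in the shams and 21.5% to 24.9% in UNx. As a covariate it is thus partly tied to the operation at 24 h too. RNA of fat tissue varied between libraries: the summed level of Adipoq, Plin1 and Cfd, which define adipocytes, was 0 to 3.23 CPM in the 24 h shams and 528 CPM in 24 h UNx replicate 4. Its highest values in the other groups were 194 CPM in the 48 h shams, 92.0 CPM in 48 h UNx, 65.9 CPM in the 72 h shams and 46.4 CPM in 72 h UNx. Libraries under 5 CPM for this sum, 20 of 36, are called fat-poor here.

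At 24 h Mlxipl was lower after UNx than after sham by 0.62 on the log2 scale, in every library, and this was the one change among the 10 genes that held in every alternative that was run. Scd2, a stearoyl-CoA desaturase, and Me1, the NADP-dependent malic enzyme that supplies NADPH, were called higher by small amounts, 0.36 and 0.23 on the log2 scale. Thrsp, a small activator of lipogenesis, was called higher by 3.40 on the log2 scale, but its UNx mean rested on replicate 4, the library rich in fat RNA. Without that library Thrsp and Me1 were no longer called, Fasn was called higher and Scd1 was called lower. Thus 4 of 10 genes were called with all libraries (3 higher, 1 lower), where 27.3% of the 14104 genes tested were called, 14.2% higher and 13.1% lower. At 48 h only Mlxipl was called, and at 72 h none of the 10 was.

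Mlxipl was measured in the 24 h shams at 100 to 140 CPM (lowest to highest, median 116) and in 24 h UNx at 69.9 to 87.3 CPM (median 73.5). The groups did not overlap, as for 10.3% of all genes tested, and Fasn was the other of the 10 genes without overlap. The difference of -0.62 had a standard error of 0.080 and an edgeR adjusted p of 0.000152. Over the alternatives the value ran from -0.67 to -0.47, the smallest in size with the mitochondrial share as a covariate, where the adjusted p was 0.0254. In the fat-poor libraries it was -0.60 (adjusted p = 0.0013). Mlxipl is expressed mainly in the proximal tubule (below). Of the 8 proximal tubule markers, 3 had a positive and 5 a negative difference at 24 h, with a median of -0.10 (log2). Of these markers 1, Slc22a6, was called higher (edgeR adjusted p = 0.0264) and none lower. Among all genes 14.2% were called higher and 13.1% lower. Their summed level was 11150 to 13124 CPM in the shams and 10663 to 12330 CPM in UNx. In tissue RNA, fewer cells of a type and less RNA per cell cannot be told apart.

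The promoters of Mlxipl are shown because it was the gene with the steadiest change, and that of Fasn for comparison, because Fasn is the enzyme the factors are best known to drive. Sequences are from RefSeq on GRCm38.p6, the 250 bases before each annotated start, 5′ to 3′ on the gene's strand. Of the 10 genes, 8 had an entry, and Scd1 and Scd2 had none. Searched on both strands of windows from 250 bases before to 50 after a start were CACGTG (E-box, in 7.15% of 32851 promoters), TCACNCCAC (a form of the sterol regulatory element, 1.24%), CCAAT (37.4%) and GGGCGG (GC box, 35.7%). No motif of this set contains another on either strand, but the ends of some share letters, so matches can overlap. A match is a run of letters and not a measured site.
Mlxipl, chr5:135089640-135089889, plus strand, E-box in capitals: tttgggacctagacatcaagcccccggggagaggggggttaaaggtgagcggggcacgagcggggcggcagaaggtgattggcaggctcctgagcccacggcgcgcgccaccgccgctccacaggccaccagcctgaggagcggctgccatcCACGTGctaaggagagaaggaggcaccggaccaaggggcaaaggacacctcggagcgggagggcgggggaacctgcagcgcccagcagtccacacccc
Mlxipl, chr5:135106641-135106890, plus strand, TCACNCCAC match in capitals: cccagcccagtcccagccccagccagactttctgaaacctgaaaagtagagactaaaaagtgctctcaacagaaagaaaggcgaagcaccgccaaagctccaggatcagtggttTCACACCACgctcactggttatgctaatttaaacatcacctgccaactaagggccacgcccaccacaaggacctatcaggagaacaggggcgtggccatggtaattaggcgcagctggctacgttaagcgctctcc
Fasn, chr11:120824548-120824797, minus strand, CCAAT matches of both strands in capitals: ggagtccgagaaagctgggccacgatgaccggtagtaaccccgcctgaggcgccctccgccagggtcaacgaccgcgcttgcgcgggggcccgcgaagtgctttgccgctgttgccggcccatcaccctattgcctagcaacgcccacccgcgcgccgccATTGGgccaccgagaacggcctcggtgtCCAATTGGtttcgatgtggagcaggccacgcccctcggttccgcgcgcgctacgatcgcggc
The E-box of Mlxipl begins 98 bases before the start of its upstream promoter, and the TCACNCCAC match begins 136 bases before the other start. Fasn held 3 matches to CCAAT, of which a pair on opposite strands overlap, and no match to CACGTG or TCACNCCAC in this window. Among the 12 promoters of the 8 genes, CACGTG and TCACNCCAC were found in these Mlxipl windows and in no other.

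Srebf1, the other regulator, ranged from 38.4 to 56.5 CPM in the 24 h shams (median 48.7) and from 43.0 to 101 CPM in UNx (median 52.0). The groups overlapped, and the highest value was that of UNx replicate 4. Its difference was 0.29 ± 0.18 (log2, SE), not called (adjusted p = 0.239), and 0.06 without replicate 4.

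Of the supply enzymes, Me1 lay at 447 to 521 CPM in the shams and at 454 to 633 CPM in UNx, where 5 of 6 libraries were above the sham mean of 482 CPM. The groups overlapped through UNx replicate 6 at 454 CPM. The call was marginal (adjusted p = 0.0277, SE 0.071): without UNx replicate 4 the value was 0.19 with an adjusted p of 0.0651, and the call was also lost without UNx replicate 3 or sham replicate 1, 3 or 5, in the fat-poor libraries (0.18, adjusted p = 0.106) and with the mitochondrial share (adjusted p = 0.279) or the adipocyte score (adjusted p = 0.0769) as a covariate. Acly, the ATP citrate lyase that releases cytosolic acetyl-CoA, was at 162 to 197 CPM in the shams and 163 to 298 CPM in UNx, and was not called (0.17 ± 0.12, adjusted p = 0.296). Without UNx replicate 4 its difference was 0.02.

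Fasn, the fatty acid synthase, was at 103 to 133 CPM in the 24 h shams (median 123). In UNx replicate 4 it stood at 928 CPM, and in the other 5 UNx libraries at 137 to 148 CPM, so every UNx library lay above every sham. With all 12 libraries the difference of 1.21 ± 0.44 (log2, SE) missed the threshold (adjusted p = 0.0544), and it passed without any one of the UNx libraries (adjusted p = 0.0161 to 0.0468). Leaving out UNx replicate 4 gave 0.25 ± 0.07, and the fat-poor libraries gave 0.25 (adjusted p = 0.0368). Acaca, the acetyl-CoA carboxylase of the committed step, showed the same library at the top and no such difference below it. It was at 30.4 to 39.5 CPM in the shams, 204 CPM in UNx replicate 4 and 33.0 to 38.7 CPM in the other 5 UNx libraries. Its difference was 0.83 ± 0.41 (adjusted p = 0.149) with all libraries and -0.01 ± 0.08 (adjusted p = 0.939) without replicate 4.

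The desaturases differed from each other. Scd1, the main stearoyl-CoA desaturase of liver and fat, ranged from 131 to 292 CPM in the 24 h shams (median 199). UNx replicate 4 stood at 1197 CPM, and the other 5 UNx libraries at 92.2 to 162 CPM, overlapping the lower shams. With all libraries its difference was 0.57 ± 0.57 (adjusted p = 0.487). Without UNx replicate 4 Scd1 was called lower, at -0.76 ± 0.19 (adjusted p = 0.0108), and it was called lower in the fat-poor libraries at -0.84 ± 0.21 (adjusted p = 0.013) and with the adipocyte marker score as a covariate at -0.84 (adjusted p = 0.0161). Scd2, the desaturase of brain and other non-hepatic tissue, was at 117 to 157 CPM in the shams (median 134) and 148 to 217 CPM in UNx (median 168). All 6 UNx libraries were above the sham mean of 136 CPM, and the groups overlapped through 2 shams at 153 and 157 CPM and UNx replicate 3 at 148 CPM. Its increase of 0.36 ± 0.10 (adjusted p = 0.0115) was 0.28 without UNx replicate 4 (adjusted p = 0.0207) and 0.28 in the fat-poor libraries (adjusted p = 0.0478). The call was lost with the mitochondrial share as a covariate (0.33, adjusted p = 0.176) and with all 36 libraries in 1 fit (0.35, adjusted p = 0.0938).

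Elovl6, which elongates palmitate to stearate, was at 19.4 to 28.6 CPM in the shams and 19.4 to 57.8 CPM in UNx, again highest in replicate 4, and was not called (0.35 ± 0.22, adjusted p = 0.266). Thrsp was at 0.603 to 1.92 CPM in the shams, 68.7 CPM in UNx replicate 4 and 0.888 to 1.63 CPM in the other 5. Its call (3.40 ± 1.13, adjusted p = 0.0366) became 0.15 ± 0.28 (adjusted p = 0.736) without replicate 4. It was also lost without sham replicate 2, 3, 4, 5 or 6, with adjusted p between 0.0621 and 0.0721 and values between 3.27 and 3.51.

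**Figure D1:**
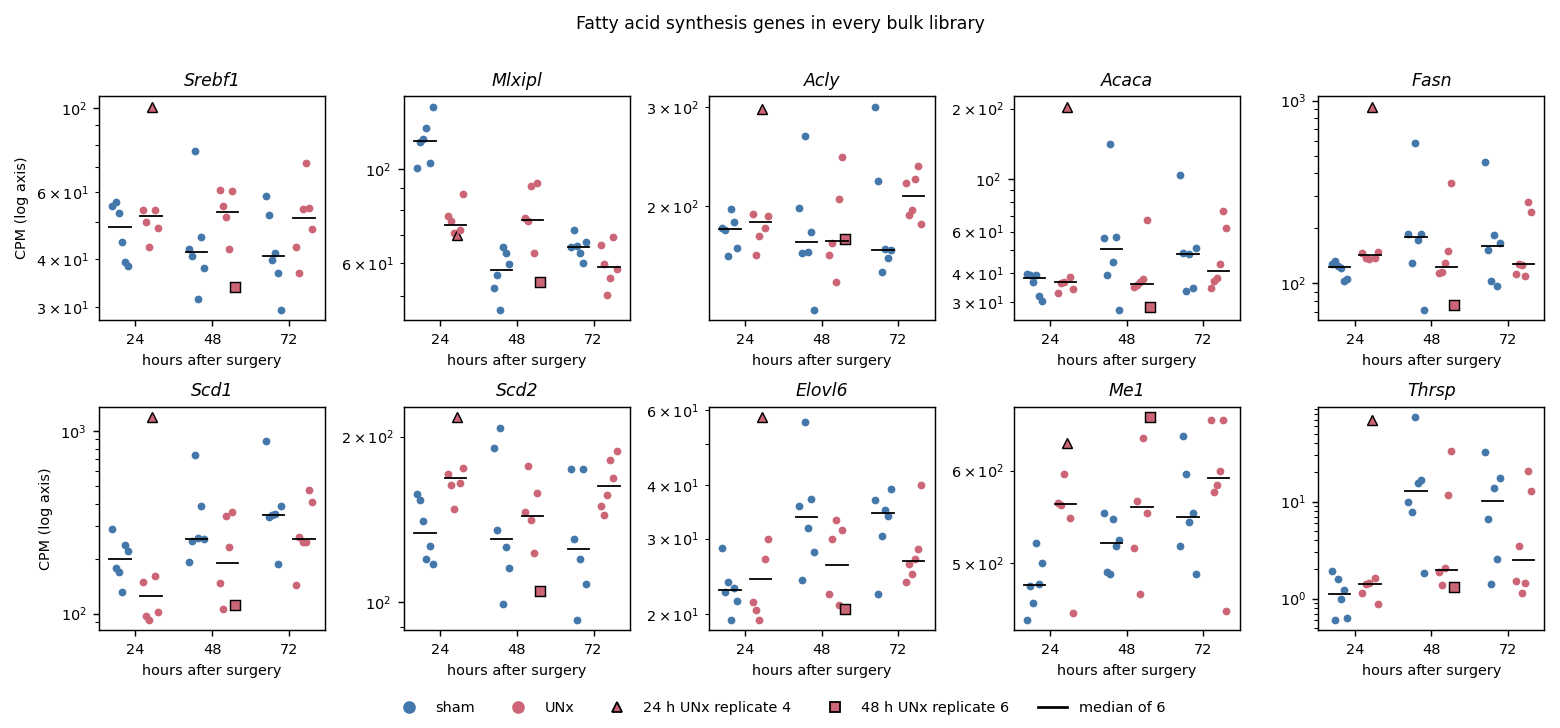
Level of each of the 10 genes (CPM, log axis) in every bulk library against hours after surgery, sham in blue and UNx in red, with the median of each 6 as a bar. The triangle is 24 h UNx replicate 4, highest of its group for 9 genes and lowest for Mlxipl, and the square is 48 h UNx replicate 6, the library with 15.2% mitochondrial counts.

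**Figure D2:**
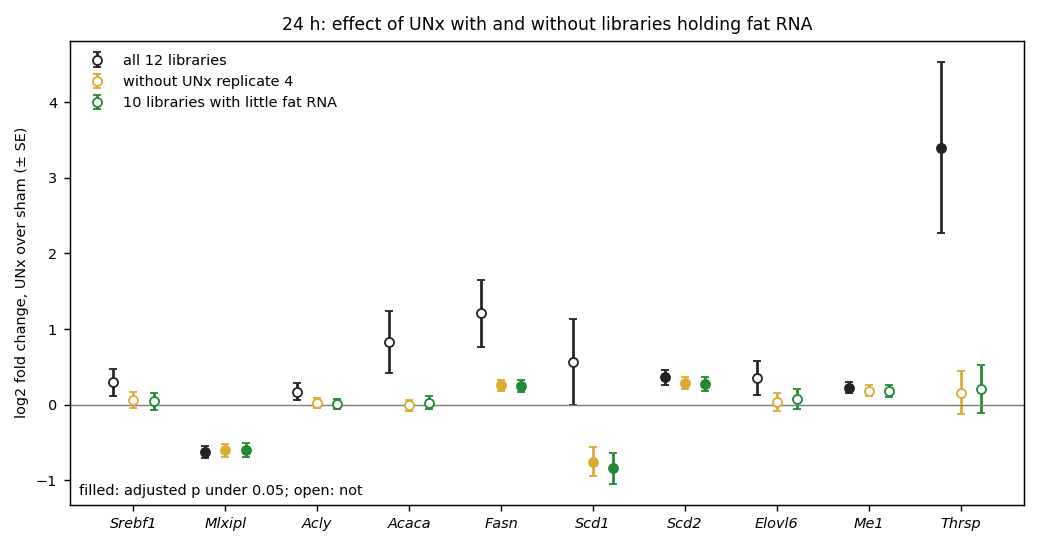
Difference between UNx and sham at 24 h (log2 fold change with its standard error) with all 12 libraries, without UNx replicate 4, and in the 10 fat-poor libraries, where filled points have an adjusted p under 0.05. Mlxipl stays near -0.6 in all 3 settings, while Thrsp goes from 3.40 to 0.15 and Scd1 from 0.57 to -0.76 when replicate 4 is left out.

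The levels of several of the genes followed the fat RNA of the library. Over the 30 libraries outside 48 h UNx, with each group centred on its mean, the mean log2 CPM of 12 adipocyte markers correlated with Thrsp (Pearson's r = 0.954, Spearman's rho = 0.904), Fasn (r = 0.926, rho = 0.838), Acaca (r = 0.901, rho = 0.773), Scd1 (r = 0.810, rho = 0.635), Elovl6 (r = 0.718, rho = 0.515) and Acly (r = 0.709, rho = 0.438). Permutation p-values within groups, adjusted over the 10 genes, were between 5e-05 and 0.003 for these r and between 5e-05 and 0.0383 for these rho, and 1e-05 unadjusted is the smallest the 100000 permutations can give. Leaving out the libraries farthest from the median score, 24 h UNx replicate 4 and 48 h sham replicate 3, left r at 0.910 for Thrsp, 0.858 for Fasn, 0.790 for Acaca, 0.555 for Scd1, 0.490 for Acly and 0.381 for Elovl6. For Srebf1 r fell from 0.505 (adjusted p = 0.03) to 0.038, and for Scd2 from 0.454 (adjusted p = 0.02) to 0.240, so these relations rest on those libraries. Elovl6 lost a like share of its r, and over all 36 libraries its rho was 0.385 (adjusted p = 0.0567) and its r without the farthest libraries 0.282, so its relation rests in large part on them too. Mlxipl (r = -0.082, adjusted p = 0.744) and Me1 (r = -0.004, adjusted p = 0.99) showed no relation that passed the test. Among the 12 markers, 3 (Fabp4, Lipe and Car3) were above 1 CPM in every library, and Adipoq and Plin1 were each at 0 in 15 of 36.

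Over the same 30 libraries Acaca and Fasn had r = 0.981 with each other, and Mlxipl had negative r with all of the other genes but Me1, given here as a description. The 5 tested genes outside the set most like Fasn were Fabp4 (r = 0.942), the fatty acid carrier of adipocytes, Agpat2 (r = 0.904), an acyltransferase of triglyceride synthesis, Car3 (r = 0.900), a carbonic anhydrase abundant in fat, Pygl (r = 0.876), a glycogen phosphorylase, and Acacb (r = 0.874), the acetyl-CoA carboxylase of the mitochondrial surface. Fabp4 and Car3 are also on the adipocyte list.

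**Figure D3:**
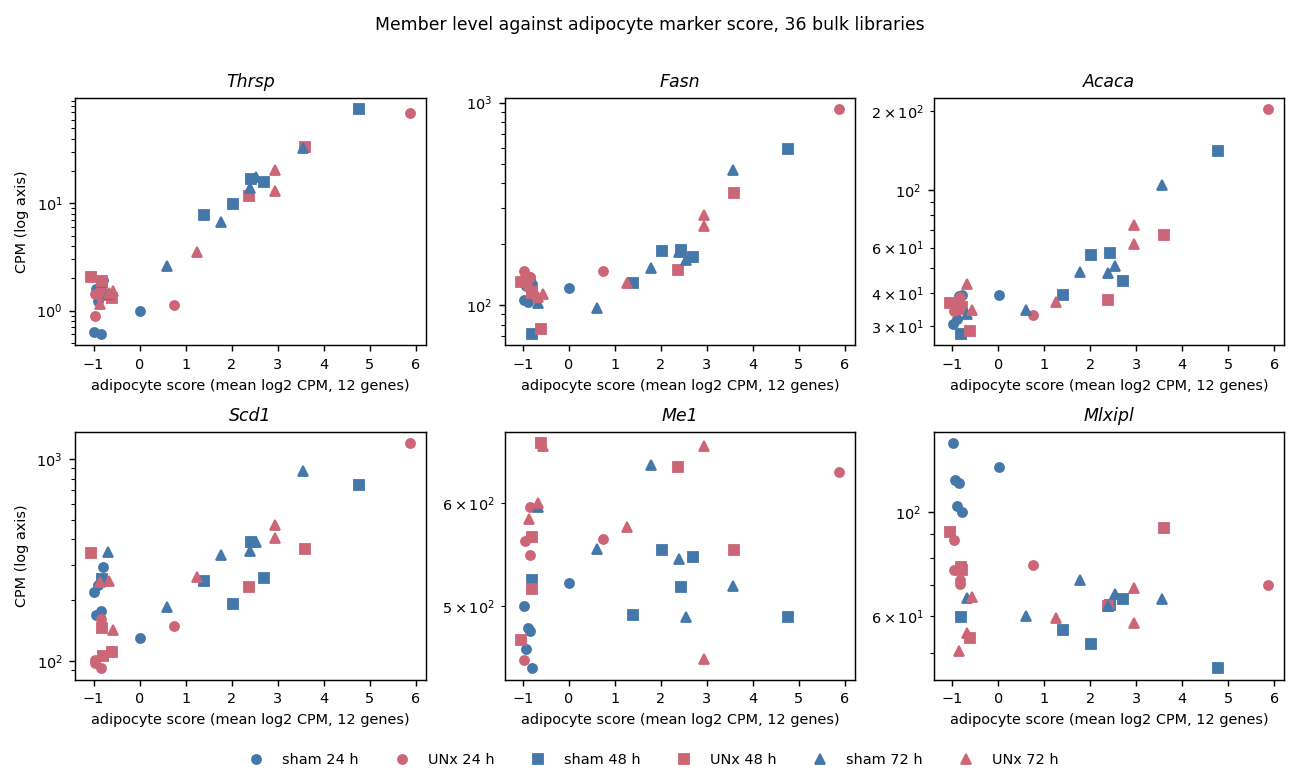
CPM (log axis) of 6 genes in the 36 bulk libraries against the adipocyte marker score, the mean log2 CPM of 12 marker genes, coloured by operation and shaped by time. Thrsp, Fasn, Acaca and Scd1 climb with the score, and Me1 and Mlxipl do not.

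Compared per kilobase of exon, the 24 h shams held most of Me1, at 125 CPM per kb, then Scd1 (41.8), Acly (34.0), Scd2 (24.9), Mlxipl (21.1), Fasn (10.9), Srebf1 (8.49), Elovl6 (3.59), Acaca (2.12) and Thrsp (0.53). In the 48 h shams Thrsp was at 9.66, Fasn at 20.3 and Mlxipl at 10.3 CPM per kb. Mlxipl averaged 117 ± 14.7 CPM (SD, n = 6) in the 24 h shams, 57.2 ± 7.09 CPM in the 48 h shams and 65.5 ± 3.95 CPM in the 72 h shams. Time after sham surgery and batch cannot be told apart between 24 h and the later times, and the mitochondrial share (23.5% to 26.7% in the 24 h shams) moved with them.

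At 48 h Mlxipl was the one gene of the 10 called, higher in UNx, where 32.9% of 14280 genes were called. It was at 46.5 to 65.4 CPM in the shams (median 57.9) and 54.0 to 92.7 CPM in UNx (median 75.9), and the groups overlapped. The difference of 0.38 ± 0.13 (log2, SE) had an adjusted p of 0.0318. The lowest UNx value was that of replicate 6, and with it as the only UNx library the difference was -0.10 (adjusted p = 0.825), assuming that it varies like the shams. That setting called 0 of 15605 genes, so its p says little, while its value has the opposite sign. With the mitochondrial share as a covariate the difference was -0.12 (adjusted p = 0.817). At 48 h that share nearly follows the operation, at 14.0% to 15.5% in the shams and 25.8% to 26.4% in UNx replicates 1 to 5. The covariate fit therefore leans on UNx replicate 6, at 15.2%, and is not a check separate from it. The call was also lost without sham replicate 1, 2 or 3 or UNx replicate 1, 2, 3 or 5, in the fat-poor libraries, which hold 1 sham, with the adipocyte score as a covariate and with replicate numbers as a block. No gene of the 10 was free of overlap, as 11.2% of all genes were.

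The other 9 genes were not called at 48 h. Elovl6 was lower in UNx, by 0.44 ± 0.19, with an unadjusted p of 0.0332 and an adjusted p of 0.083. It was at 24.0 to 56.2 CPM in the shams and 20.5 to 33.2 CPM in UNx. Without sham replicate 2 it was called (-0.53, adjusted p = 0.0438). Scd1 was at 192 to 743 CPM in the shams and 106 to 358 CPM in UNx (-0.71 ± 0.37, adjusted p = 0.154). Thrsp was at 1.84 to 75.0 CPM in the shams and 1.31 to 33.2 CPM in UNx (-1.34 ± 0.88, adjusted p = 0.256), and was called lower without UNx replicate 5 (-2.59, adjusted p = 0.0409). Sham replicate 3 held the highest value of Srebf1, Acaca, Fasn, Scd1, Scd2, Elovl6, Acly and Thrsp among the shams, and it also held the highest sum of Adipoq, Plin1 and Cfd among them. Fasn ranged from 71.8 to 589 CPM in the shams and from 75.8 to 356 CPM in UNx (-0.52 ± 0.45, adjusted p = 0.391). In the fat-poor libraries Fasn differed by 0.61 in the other direction (adjusted p = 0.568).

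At 72 h none of the 10 genes was called by edgeR, where 1.71% of 14556 genes were, and none had an unadjusted p under 0.05. None was free of overlap between groups, as 1.95% of all genes were. DESeq2 and limma voom called none of them either. The smallest p was that of Mlxipl, at 60.0 to 71.8 CPM in the shams and 50.5 to 68.9 CPM in UNx (-0.14 ± 0.07, adjusted p = 0.318). Scd2 was at 92.8 to 175 CPM in the shams and 144 to 189 CPM in UNx, with all 6 UNx libraries above the sham mean of 133 CPM and a difference of 0.30 ± 0.15 (adjusted p = 0.318). Me1 was at 490 to 642 CPM in the shams and 455 to 663 CPM in UNx (0.07 ± 0.09, adjusted p = 0.732). For Fasn the ranges were 96.3 to 464 CPM and 110 to 279 CPM, for Scd1 186 to 876 CPM and 143 to 474 CPM, and for Thrsp 1.43 to 32.7 CPM and 1.15 to 20.5 CPM, all overlapping widely.

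The effect of UNx on Mlxipl differed between every pair of times when tested in 1 fit of 36 libraries. It was more positive at 48 h than at 24 h by 1.03 ± 0.14 on the log2 scale (adjusted p = 1.53e-06), more negative at 72 h than at 48 h by 0.53 ± 0.14 (adjusted p = 0.0119), and more positive at 72 h than at 24 h by 0.50 ± 0.14 (adjusted p = 0.0385). Shares of all 15093 genes called were 37%, 14.6% and 4.15%. Mean Mlxipl (sham, UNx) was 117 and 75.3 CPM at 24 h, 57.2 and 75.4 CPM at 48 h, and 65.5 and 59.7 CPM at 72 h. Batch 1 holds the 24 h libraries and batch 2 the later ones. In the differences from 24 h, a batch acting unequally on sham and UNx therefore cannot be told apart from time. With 48 h UNx replicate 6 as the only 48 h UNx library, the 48 h to 24 h difference was 0.54 (adjusted p = 0.11), and with the mitochondrial share as a covariate none of the 3 was called. The 72 h to 48 h difference was not called without replicate number 1, 2 or 3 (adjusted p = 0.0519 to 0.121), nor the 72 h to 24 h difference without number 1, 2, 3, 4 or 5 (0.0740 to 0.176). Between 48 h and 24 h Acaca (-1.43 ± 0.55), Fasn (-1.70 ± 0.68), Elovl6 (-0.77 ± 0.30) and Thrsp (-4.71 ± 1.56) were also called, with adjusted p between 0.0167 and 0.0465. Without replicate number 4 these were -0.68, -0.81, -0.38 and -1.60 and none was called. In the fat-poor libraries Fasn and Acaca turned to 0.36 and 0.27, not called, and Mlxipl was 0.93 (adjusted p = 0.0488).

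Other genes of the pathway, listed by role, gave the following counts at 24 h against 14.2% of all genes called higher and 13.1% lower, with a median difference of 0.01 over all genes. These counts used all 12 libraries. Adipocyte markers moved with them: all 4 that were tested were higher with an unadjusted p under 0.05, 1 of them called, with a median of 1.49. Without UNx replicate 4 that median was 0.21 and none was called, and 12.2% of all genes were called higher and 11.1% lower. Of 15 regulators of SREBP and ChREBP, 6 were higher and 2 lower. Insig1, which retains SREBP in the endoplasmic reticulum and is itself an SREBP target, was higher by 0.82 ± 0.09 (adjusted p = 6.52e-05). Mlx, the partner through which ChREBP binds DNA, was higher by 0.37 ± 0.06 (adjusted p = 0.000709), and the transcription factor Usf2 lower by 0.33 (adjusted p = 0.00295). Of 11 genes of acetyl-CoA and malonyl-CoA supply, 5 were higher and 1 lower, among them citrate synthase, Cs, at 0.38. Without UNx replicate 4 this was 2 higher and 1 lower. Of 10 genes of NADPH supply, 4 were higher and 1 lower: cytosolic Idh1 was higher by 0.56 ± 0.08 (adjusted p = 0.000296), and mitochondrial Idh2 was -0.25 (adjusted p = 0.00573).

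Among 11 tested genes of elongation and desaturation, 5 were higher and 2 lower, with Elovl2 at 0.49 and Elovl1 at 0.34. Mitochondrial fatty acid synthesis had 3 of 7 higher, with the acyl carrier protein Ndufab1 at 0.46. Triglyceride synthesis and storage had 9 of 18 higher and none lower, against 8 higher and 1 lower without UNx replicate 4, with the lipid droplet protein Plin2 at 0.47 ± 0.07 (adjusted p = 0.00023). For sugar-response genes regulated by ChREBP or its relative MondoA the count was 4 of 10 higher and none lower, with Pklr, pyruvate kinase of liver and kidney, at 0.66 ± 0.10 (adjusted p = 0.000541) and Khk, ketohexokinase, at 0.33. LXR targets had none of 7 higher and 2 lower, the cholesterol exporter Abca1 at -1.16 ± 0.23 (adjusted p = 0.00198) and Mylip at -0.74. Cholesterol synthesis had 17 of 22 higher and none lower, a median of 0.49, with Msmo1 at 1.02 ± 0.10 (adjusted p = 4.17e-05). Without UNx replicate 4, sugar-response genes had 5 higher, LXR targets 3 lower, and cholesterol synthesis again 17 higher. The 10 fatty acid synthesis genes had 3 higher and 1 lower and a median of 0.36, but 2 higher and 2 lower and a median of 0.05 without that library. Insig1, Msmo1 and Pklr were called higher without each 24 h library in turn.

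At 48 h the regulators counted 6 of 15 higher and 2 lower, NADPH supply 4 of 10 higher, elongation and desaturation 6 of 11 higher and 2 lower, triglyceride genes 3 of 18 higher and 2 lower, and cholesterol synthesis 5 of 22 higher and 2 lower. Acetyl-CoA and malonyl-CoA supply had 2 of 11 higher and 1 lower, sugar response 2 of 10 higher, mitochondrial synthesis 2 of 7 higher and LXR targets 3 of 7 higher and 1 lower, where 16.9% of all genes were higher and 16% lower. Tecr, the enoyl-CoA reductase of elongation, was higher by 0.89 ± 0.14 (adjusted p = 0.000755) and Fads2, a desaturase of polyunsaturated chains, by 0.39. These groups differ in mitochondrial share as above. Median log2 differences with all libraries, and with UNx replicate 6 as the only UNx library, were as follows. Elongation and desaturation had 0.35 and 0.11, NADPH supply 0.12 and 0.02, and cholesterol synthesis 0.16 and -0.03. Regulators had 0.05 and -0.02, triglyceride genes -0.06 and -0.06, and LXR targets -0.17 and -0.55. Acetyl-CoA and malonyl-CoA supply had -0.07 and 0.12, sugar response 0.09 and 0.18, and mitochondrial synthesis 0.01 and 0.20. At 72 h, where 1.71% of all genes were called, 1 gene of these lists was, Apoe, an LXR target, at -0.50 ± 0.11 (adjusted p = 0.0429), while 11 of 22 cholesterol synthesis genes had an unadjusted p under 0.05, as did 17.3% of all genes.

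In the nuclei, levels are UMI counts summed over the nuclei of a class in each mouse and given as CPM. The annotation names 30 classes, and 23 had at least 10 nuclei in every mouse. The 4 mice gave 5342 and 2641 sham nuclei and 5151 and 3366 UNx nuclei (batch 3, then batch 4), with median UMI totals of 7581 to 9909, and 18 barcodes were shared over all pairs of samples. Among these 23 classes Mlxipl was highest in the proximal tubule. It averaged 507 ± 41.8 CPM (SD, n = 4 mice) in the class PTS3, 436 ± 49.6 CPM in PTS2 and 265 ± 37.4 CPM in PTS1, the 3 proximal tubule segments, followed by 244 ± 44.9 CPM in PEC. PTS3 and PTS2 overlapped between mice, and PTS2 lay above PTS1 without overlap. Me1 was highest in MPC (532 ± 62.8 CPM), PTS3 (498 ± 113) and PTS2 (444 ± 87.2), whose ranges overlapped, and stood at 209 ± 67.7 CPM in PTS1.

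Elovl6 and Acaca had other leading classes. Elovl6 was highest in ATL (637 ± 130 CPM) and DTL3-ATL (365 ± 132), then DTL1 (202 ± 45.6), and averaged 60.0 CPM in PTS1, 29.7 CPM in PTS2 and 19.5 CPM in PTS3. ATL was also the highest class for Acaca (183 ± 44.9 CPM), which lay between 82.7 and 95.3 CPM on average in the proximal segments. Scd2 was highest in MPC (110 ± 22.1 CPM), CPC (67.6) and CNT (51.9) and about 10 CPM in each proximal segment (9.86 to 10.3). Acly showed little separation of classes, with DTL2 highest at 61.7 ± 18.5 CPM and PTS2 at 57.4 ± 20.9. Srebf1, Fasn and Scd1 were low, with highest class means of 23.2 CPM (PEC), 30.7 CPM (MD) and 37.8 CPM (PEC) and ranges over mice that overlapped between neighbouring classes. Thrsp was highest in EC1 (25.4 ± 20.2 CPM) and EC2 (15.0 ± 7.50).

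The adipocyte class, named Adipo, held 68 nuclei and was below 10 nuclei in 3 mice. It had the highest means of Acaca (4525 CPM, 1712 to 8987 over mice), Elovl6 (1401 CPM), Mlxipl (728 CPM), Thrsp (357 CPM), Fasn (353 CPM), Acly (162 CPM) and Scd1 (133 CPM) of all classes, and 413 CPM of Me1, 52.7 CPM of Srebf1 and 16.2 CPM of Scd2. Of its nuclei, 55 came from the second UNx mouse, 1.63% of that mouse's nuclei (exact 95% interval 1.23% to 2.12%) against 0.0757% to 0.116% in the others. In that mouse the class had 311 CPM of Plin1 and 1273 CPM of the proximal tubule gene Lrp2, against 557 to 1739 CPM and 17.2 to 742 CPM in the others. Of all Acaca UMIs of the second UNx mouse, 32.3% lay in these nuclei, and of its Thrsp UMIs 40.4%.

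**Figure D4:**
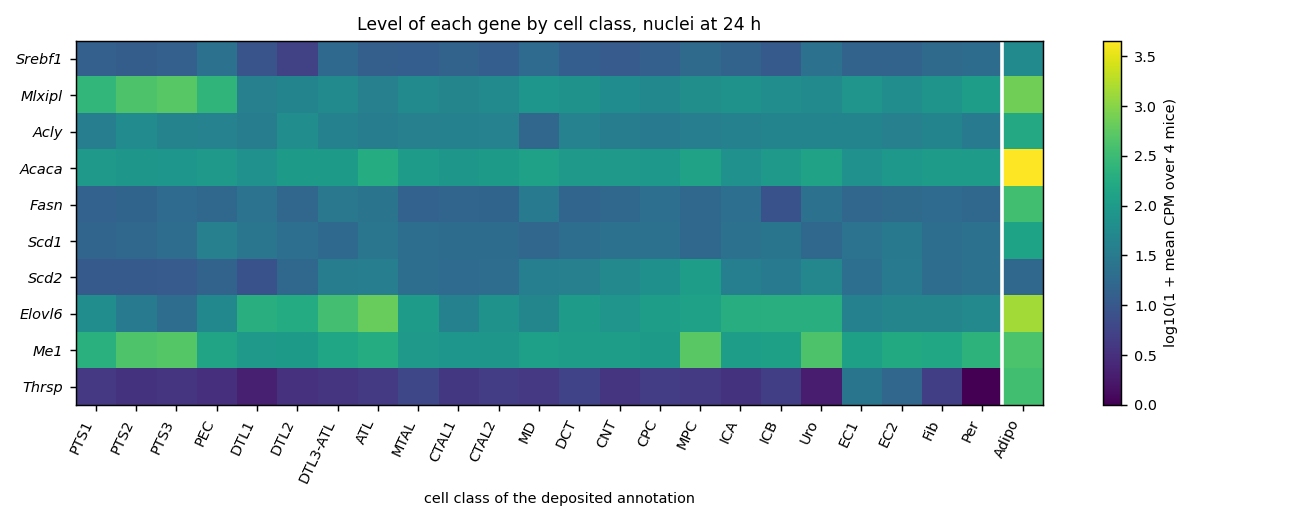
Mean level over 4 mice of each gene (rows) by cell class of the annotation (columns), as log10 of 1 + CPM, with the adipocyte class set apart on the right. Mlxipl and Me1 are bright in PTS2 and PTS3, Elovl6 in ATL and DTL3-ATL, and Acaca in the adipocyte class.

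Mlxipl outside the proximal tubule was higher in the second mouse of each group, batch 4. The median over 23 classes of Mlxipl was 13.5 CPM in the sham and 6.41 CPM in the UNx mouse of batch 3, and 126 and 123 CPM in those of batch 4. The proximal segments held 96.2% and 96.8% of Mlxipl UMIs in batch 3 and 72.3% and 71.2% in batch 4. Fasn in the second UNx mouse was at least 26.2 CPM in each of the 23 classes (median 44.0), against medians of 5.06, 10.8 and 4.30 CPM in the others. Adipoq outside the adipocyte class was at 4.51 CPM in that mouse and 0.0564 to 0.673 CPM in the others. The part of RNA outside nuclei in these levels was not tested.

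No gene of the 10 was called between UNx and sham nuclei in any of the 23 classes, nor in all nuclei together (edgeR, 2 against 2), where 0% of genes were called in each of these 24 comparisons. Of 175 pairs of a gene and a class that passed the filter, 1 had an unadjusted p under 0.05, Acaca in CTAL1 (57.6 and 67.3 CPM in sham, 113 and 98.0 CPM in UNx, 0.80 ± 0.25, adjusted p close to 1). The sham and the UNx mouse of the same number share a labelled batch, and with the batch as a block still none was called. In that setting 30 of the 175 had an unadjusted p under 0.05 and 1765 calls were made over all genes and comparisons. Of the 30, 11 were of Me1, 8 of Fasn and 5 of Acly. The share of all genes with such a p in that setting was not counted, so the 30 are not a result about the 10 genes. DESeq2 made 93 calls over all genes and none among the 10. Given 2 mice per group, a p that misses the threshold does not show that levels were alike.

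Mlxipl was lower in the UNx mouse than in the sham of its batch in each proximal segment. In PTS3 it was 555 and 504 CPM (sham, UNx) in batch 3 and 517 and 454 CPM in batch 4. In PTS2 the values were 484 and 376 CPM, and 468 and 416 CPM. In PTS1 they were 267 and 211 CPM, and 293 and 289 CPM. Fitted differences were -0.17 ± 0.21 in PTS3, -0.26 ± 0.17 in PTS2 and -0.10 ± 0.23 in PTS1 (log2, SE), none called, and their size was below the -0.62 of the bulk libraries. Over the 20 classes in which it was tested, Mlxipl was lower in UNx in both batches in 10 and higher in both in 2. The classes come from the same 4 mice and are not separate samples, and the like count over all genes was not made.

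Acly was higher in UNx in both batches in each proximal segment. It went from 22.7 to 39.5 CPM and from 43.2 to 65.1 CPM in PTS3, from 34.6 to 51.1 CPM and from 59.2 to 84.7 CPM in PTS2, and from 17.7 to 20.3 CPM and from 45.6 to 59.2 CPM in PTS1. With the batch as a block the adjusted p was 0.0502 in PTS3 (0.69) and 0.0894 in PTS2 (0.55), and neither was called. Both levels were higher in batch 4 than in batch 3. This direction was not particular to these segments: over the 19 classes tested, Acly was higher in both batches in 12 and lower in both in 0. Its median over 23 classes was 29.2 and 30.8 CPM (sham, UNx) in batch 3, and 42.5 and 55.4 CPM in batch 4. The classes come from the same mice and are not separate samples, and the like count over all genes was not made. Me1 was higher in UNx in both batches in PTS1 (158 and 187 CPM, 183 and 309 CPM; 0.60 ± 0.30, not called). In PTS3 it was lower in batch 3 (610 and 508 CPM) and higher in batch 4 (342 and 533 CPM), and in PTS2 likewise (480 and 437 CPM, 328 and 533 CPM). Over the 22 classes in which it was tested, Me1 was higher in UNx in both batches in 12 and lower in both in 2. With the batch as a block, 11 had an unadjusted p under 0.05, none of them called. The median over 23 classes of Me1 was 53.7 and 46.7 CPM (sham, UNx) in batch 3, and 141 and 256 CPM in batch 4. The larger difference was thus that of the second UNx mouse, and the limits given for Acly hold here too.

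**Figure D5:**
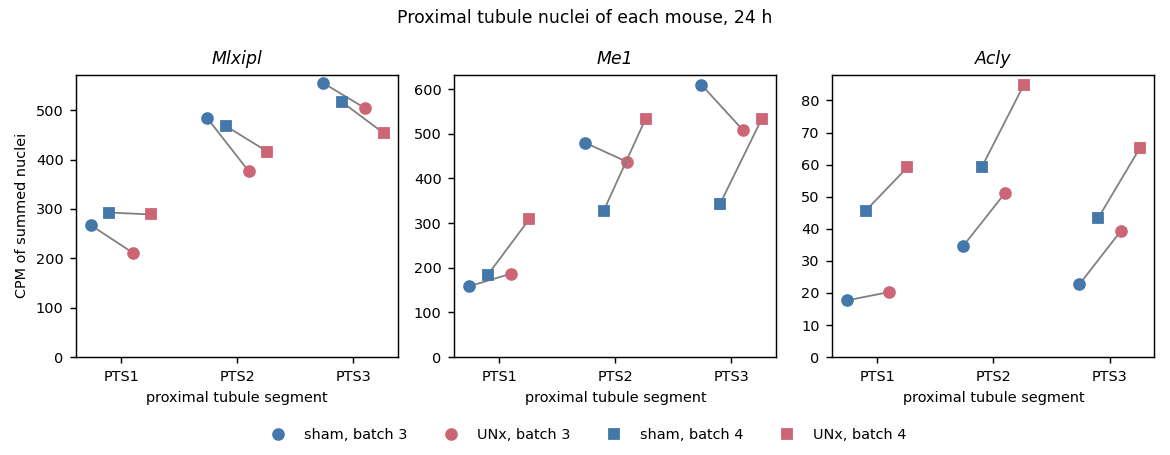
Level of Mlxipl, Me1 and Acly (CPM of summed nuclei, axis from 0) in the 3 proximal tubule classes for each of 4 mice, with lines joining the sham and UNx mouse of a batch. Mlxipl lines slope down and Acly lines slope up in every segment, while Me1 lines rise in PTS1 and go opposite ways in PTS2 and PTS3.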

How the data were processed

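The bulk table deposited by the authors holds estimated counts per Ensembl gene (expected counts, not normalized). Salmon 1.5.0, FastQC 0.11.8, R 4.10 and the build GRCm39 stand in the submitters' processing notes for it, and mm10, Seurat and alevin for the nuclei, without settings. Bulk genes were paired with symbols through GENCODE M21, which left 127 of 28467 unnamed. Nucleus counts are UMIs deposited by the authors, of which 13.9% of values above 0 are not whole. Cell classes are those of the deposited annotation. The lowest UMI total is 1755, so nuclei were filtered before deposit; how doublets were treated before deposit is not given in the sources used here. No doublet caller was run.

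Counts were rounded (nuclei after summing per mouse and class) and tested with edgeR 4.0.16 (quasi-likelihood, filterByExpr, TMM, two-sided) in R 4.3.3, over all genes, with Benjamini-Hochberg adjustment and a call at 0.05. UNx was compared with sham within each time, and times in 1 fit of 36 libraries. Standard errors are the fold change over the square root of F. Alternatives used DESeq2 1.42.0, limma 3.58.1 voom with quality weights, other filters, covariates and leaving out libraries; DESeq2 gave no adjusted p for Acaca, Fasn, Scd1 and Thrsp at 24 h. The script was tested on simulated data. Replicate pairs differed by at least 5.17 (chi-square per gene, 90 pairs), so none was the same library. Bulk replicate numbers did not pair mice (a correlation over 0.1 in 0, 0 and 2 of 6 pairs at 24, 48 and 72 h). Nucleus numbers mark a labelled batch and were used as a block.

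The 10 genes were given as a list, and they and the other lists were chosen with earlier results of these data known. From each other list, named genes are among the up to 3 called genes with the lowest p at a time. Classes named are the 3 highest for each gene, with the adipocyte and proximal tubule classes. The fat-poor limit was chosen after seeing the data.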

Additional observations from a re-analysis of the deposited data

Results flagged for a closer look

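In 19 of the 60 groups of 6 libraries looked at (10 genes in 6 groups), the highest library stood so far above the rest that its gap to the next exceeded Dixon's critical share of the range. That limit is meant to be passed, at either end, by about 1 of 20 groups of normally distributed values. The 60 groups share libraries and several genes are correlated, so the 19 cannot be set against that rate. In 24 h UNx replicate 4 this held for 7 genes: Srebf1 at 101 CPM, Acly at 298, Acaca at 204, Fasn at 928, Scd1 at 1197, Elovl6 at 57.8 and Thrsp at 68.7. In 48 h sham replicate 3 it held for 5: Srebf1 at 76.9 CPM, Acaca at 142, Fasn at 589, Scd1 at 743 and Thrsp at 75.0. In 72 h sham replicate 1 it held for Acaca at 104 CPM, Fasn at 464 and Scd1 at 876. In 48 h UNx replicate 5 it held for Acaca at 67.3 CPM, Fasn at 356 and Thrsp at 33.2, and in 72 h UNx replicate 6 for Elovl6 at 40.1 CPM. Each of these 5 libraries also held the highest sum of Adipoq, Plin1 and Cfd in its group.

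The UNx effect differed between times by the test of the difference itself for 5 genes. From 24 h to 48 h the change in effect was 1.03 for Mlxipl, -1.43 for Acaca, -1.70 for Fasn, -0.77 for Elovl6 and -4.71 for Thrsp (log2). For Mlxipl it was also -0.53 from 48 h to 72 h and 0.50 from 24 h to 72 h. Between 24 h and the later times the batch differs too, as given above.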

How the results depend on the processing

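Over 148 results, 2680 values were recomputed, and 2240 kept their direction and their side of the threshold. Another 332 kept the direction and lost the call, and 12 gained one. Counts moved by more than 1.5 times, or to or from 0, in 40 cases, and 56 values changed sign. The counts that follow stand without the share of all genes called in the same setting. They show how calls depend on the processing and are not results about the 10 genes. Settings that leave 1 library in a group can call few genes of any kind. Of the 10 genes, 4 were called at 24 h. All 36 libraries in 1 fit called 2 and the mitochondrial share as a covariate 1. At 48 h, where 1 was called, the replicate block called 2 (Scd1 at -0.72 and Elovl6 at -0.42), and the mitochondrial covariate, the adipocyte score covariate, UNx replicate 6 alone and the fat-poor libraries called 0. For the 48 h to 24 h difference, 5 were called, against 1 with voom, the adipocyte covariate or the fat-poor libraries, 2 with the replicate block, and 0 with the mitochondrial covariate or replicate 6 alone. For 72 h to 48 h, 1 became 0 with the mitochondrial covariate, replicate 6 alone and the fat-poor libraries. For 72 h to 24 h, 1 became 2 with DESeq2 and 0 with no filter, the mitochondrial covariate, the adipocyte covariate, the replicate block and the fat-poor libraries. With the adipocyte score over all 36 libraries Me1 had r = 0.063. Leaving out 1 library at a time gave 2 to 5 called genes at 24 h, 0 to 1 at 48 h, 0 to 0 at 72 h and 0 to 1 in nuclei (Me1 in DTL2 without UNx replicate 1, 2.90, adjusted p = 0.0407). Leaving out 1 replicate number from every group gave 1 to 4, 0 to 1 and 0 to 1 for the 3 differences between times.

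Signs changed as follows, on the log2 scale. At 24 h Scd1 was -0.31 with voom, -0.36 with the replicate block, -0.84 with the adipocyte covariate and -0.84 in fat-poor libraries, and Acaca was -0.020 with the adipocyte covariate. At 48 h Acly was 0.0042 with DESeq2 size factors, 0.0044 with DESeq2, 0.075 with voom, 0.0027 without mitochondrial genes, 0.00039 with 36 libraries, 0.00036 with the block, 0.24 with the adipocyte covariate and 0.34 in fat-poor libraries. Scd2 was 0.087 with voom, 0.055 with the adipocyte covariate and 0.31 in fat-poor libraries. Fasn was 0.32 with the adipocyte covariate and 0.61 in fat-poor libraries, where Acaca was 0.29 and Acacb 0.067. With the mitochondrial covariate Srebf1 was -0.48, Mlxipl -0.12, Wt1 -0.0018 and Cd68 -0.12, and with replicate 6 alone Srebf1 was -0.45, Mlxipl -0.095 and Cd68 -0.070. At 72 h Acly was -0.039 with the mitochondrial covariate, Acaca 0.11 and Fasn 0.18 with the adipocyte covariate, and 0.18 and 0.21 in fat-poor libraries. For 48 h to 24 h the adipocyte covariate gave Acaca 0.0029, Fasn 0.084 and Thrsp 0.026, and fat-poor libraries gave 0.27 and 0.36 for Acaca and Fasn. Without 1 library, Acaca at 24 h ran from -0.010 to 0.96, Scd1 from -0.76 to 0.75, 48 h Acly from -0.11 to 0.12, Fasn from -0.95 to 0.054, Scd2 from -0.15 to 0.068, 72 h Acaca from -0.31 to 0.15 and Fasn from -0.43 to 0.24. In nuclei Mlxipl in PTS1 ran from -0.32 to 0.11, Acly in PTS1 from -0.55 to 1.20 and Me1 in PTS3 from -0.25 to 0.66. The cause was not tested. The batch block in nuclei changed no call among the 10 genes. The fat-poor setting and the list counts without a library were chosen after seeing the data, and 1 library in a group is assumed to vary like the others. Thrsp rests on few counts in most libraries, and 2 mice per group limit the nuclei.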
